A study of Mus musculus with 32 samples.

Results

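The direct Wnt feedback targets described here were 9 mouse genes: Axin2, Nkd1, Znrf3, Rnf43, Lgr5, Dkk1, Notum, Sp5 and Bambi. They were taken from general knowledge as well-known direct targets or feedback genes of β-catenin, by a rule that used none of their measured values, though with earlier results of these data known, and all 9 were found by Ensembl identifier among the 31053 genes counted. RNA was measured by 3′ end sequencing (QuantSeq) in 32 libraries, 8 groups of 4 biological replicates each. All groups came from C1, a drug-selected line of mouse embryonic stem cells (ESCs) in which both copies of β-catenin were knocked out and which carried lentiviral vectors for an rtTA activator, driven by EF1a, and for a TRE3G-driven fusion of a destabilizing domain, mCherry and β-catenin S33Y, a form that escapes degradation. Doxycycline (dox) starts transcription of the fusion and trimethoprim (TMP) stabilizes the protein.

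At day 0 there were 3 groups, in pluripotent culture. The labels give serum with LIF as the growth medium, and by the study's account the sequenced cells were then kept for some passages in serum-free medium with LIF, a MEK inhibitor and Chiron, a GSK3 inhibitor that activates the Wnt pathway upstream of β-catenin. C1 cells had received 10 μM TMP for 48 h and no dox. C1M and C1H cells had received 100 ng/mL dox with 10 μM TMP for 48 h and were sorted for moderate (C1M) and high (C1H) mCherry. At day 4 of differentiation in NDiff227 medium there were 5 groups. C1T cells, from C1, had TMP alone. C1MV and C1HV cells, from C1M and C1H, had neither inducer, and C1MDT and C1HDT cells, from the same 2 fractions, had dox and TMP throughout. Cells of 1 engineered line stand behind every group, so that a wild-type response to Wnt was not measured, and day 0 and day 4 groups differed in medium as well as in time.

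When a Wnt ligand binds its receptors, the complex that marks β-catenin for degradation is inhibited, and β-catenin enters the nucleus and binds TCF/LEF factors at target genes. Several of these targets encode inhibitors of the pathway itself. Axin2 is a scaffold of the destruction complex and Nkd1 binds Dishevelled inside the cell, Znrf3 and Rnf43 are membrane ubiquitin ligases that remove Wnt receptors, and Dkk1 and Notum are secreted inhibitors. Lgr5 is a receptor for R-spondins, which counteract Znrf3 and Rnf43, Sp5 is a transcription factor, and Bambi is a membrane pseudoreceptor that dampens BMP and TGF-β signalling.

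The 9 genes were rare in these libraries. Libraries held 1366951 to 3648787 counted reads, and the 9 genes held 1614 counts over all 32 libraries. Of the 288 values, 66 were 0 and 148 were 3 counts or fewer, a floor worth between 0.837 and 2.14 CPM (counts scaled to a common library total, with edgeR's TMM factors) depending on the library. The highest count of any member was 39. Axin2, Nkd1, Znrf3, Notum, Dkk1 and Bambi passed the filter of 1 CPM in 4 libraries and were tested among 15280 genes, whereas Sp5, Lgr5 and Rnf43 had 3 counts or fewer in every library and were not. Reads that fell on no gene made up 19.5% to 23.1% of uniquely aligned reads at day 0 and 10.1% to 15.6% at day 4, and their part in differences between the days was not tested. Naive pluripotency markers summed to 6791 ± 117 CPM in C1, 5218 ± 103 in C1M and 5282 ± 117 in C1H (SD, n = 4), and to between 722 and 1590 CPM in the day 4 groups, while 8 fibroblast markers, as of feeder cells, summed to between 11.7 and 21.4 CPM.

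**Figure D1:**
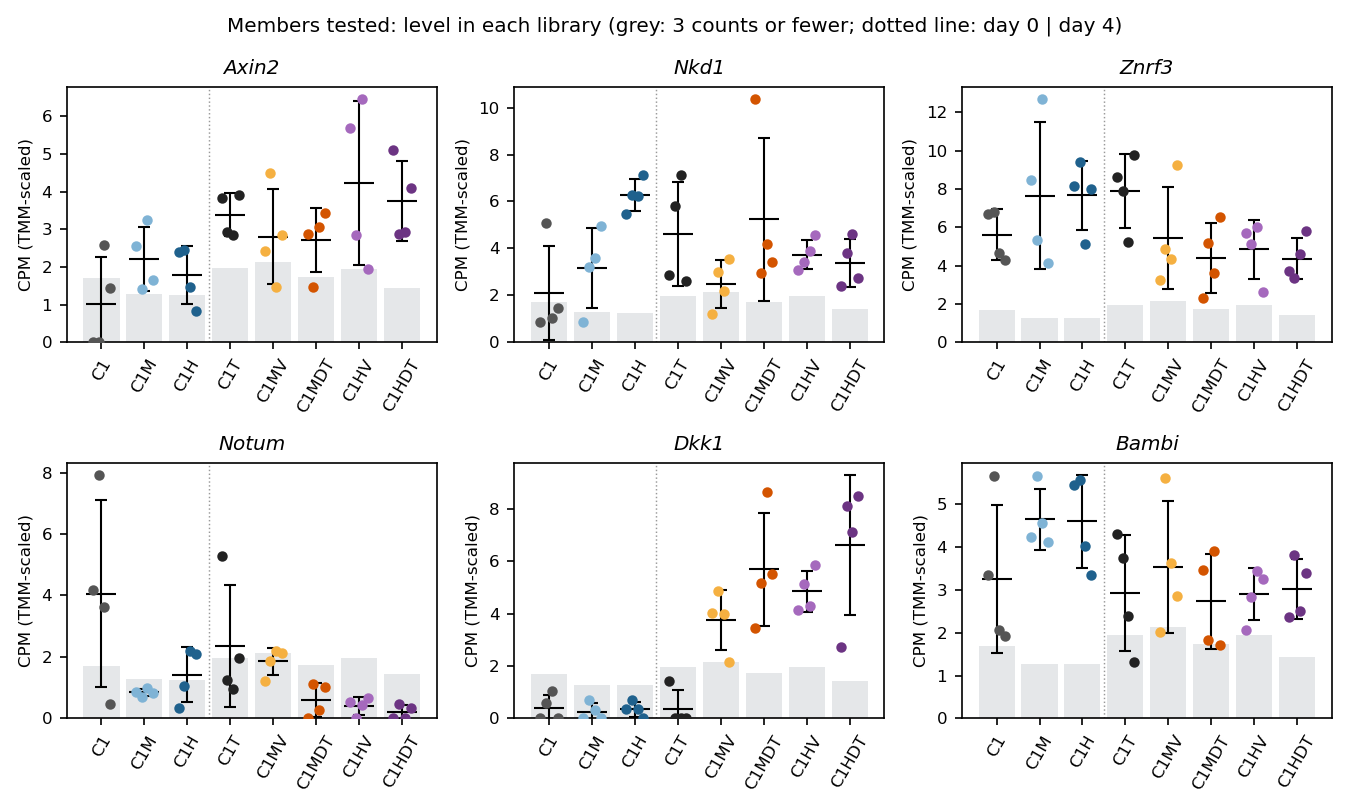
Level of each of the 6 tested genes in every library, in CPM scaled by TMM factors, by group; points are libraries, and the black line and bars are the mean ± SD (n = 4). Grey marks 3 counts in the group's smallest library. Dkk1 reaches or passes it only in day 4 groups given dox before differentiation, with 2.14 CPM the lowest value there.

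Counts of Ctnnb1, the gene of β-catenin, were taken as a partial sign of fusion RNA. How much of that RNA is counted under this name is not known. RNA counts also do not measure the fusion protein, which TMP stabilizes. Ctnnb1 was at 7.81 ± 2.62 CPM (SD, n = 4) in C1, 12.2 ± 3.84 in C1M and 41.1 ± 5.70 in C1H. The 4 C1H libraries, between 34.9 and 48.7 CPM, all stood above the C1M libraries, between 9.45 and 17.7 CPM, with a log2 fold change of 1.76 ± 0.18 (SE). C1M did not pass the threshold against C1 (log2 fold change 0.61 ± 0.25, SE, edgeR adjusted p = 0.0551). At day 4 Ctnnb1 was at 29.2 ± 4.29 CPM in C1MDT and 30.8 ± 3.73 in C1HDT, against 9.16 ± 2.57 in C1MV, 6.21 ± 1.84 in C1HV and 9.74 ± 2.47 in C1T. Ctnnb1 counts were thus high in 3 groups, C1H, C1MDT and C1HDT. Counts in cells without dox could come from the altered gene or from the vector, which 3′ end counts under 1 gene name cannot tell apart, and Ulk4, on the opposite strand, overlaps Ctnnb1.

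Dkk1, a secreted inhibitor that blocks the Wnt co-receptors Lrp5 and Lrp6, lies at chr19:30545863-30549665 on the minus strand (GRCm38). At day 0 Dkk1 was at the floor. Its counts were 0, 1, 2 and 0 in C1, 0, 2, 1 and 0 in C1M, and 1, 2, 1 and 0 in C1H. In C1T at day 4 they were 3, 0, 0 and 0. In C1MV they were 10, 13, 11 and 3, and in C1HV 8, 9, 10 and 9. In C1MDT they were 6, 14, 31 and 16, and in C1HDT 8, 17, 17 and 25. In each of these 4 groups every library was above every C1T library once scaled, from 2.14 CPM upward against at most 1.44 CPM. Thus cells given dox and sorted for mCherry before differentiation held Dkk1 counts at day 4 whether or not the inducers were kept. C1T cells had 3 counts in all. No group had dox without the fusion, so dox, sorting and the fusion cannot be told apart.

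Against C1T the log2 fold change of Dkk1 was 3.24 ± 0.71 (SE) for C1MV, 3.83 ± 0.65 for C1MDT, 3.52 ± 0.70 for C1HV and 3.96 ± 0.65 for C1HDT, with edgeR adjusted p-values of 9.4e-05, 3.6e-07, 1.8e-05 and 1.0e-07. All 4 comparisons share the C1T libraries. Elsewhere only C1 replicate 3 (1.04 CPM) and C1T replicate 1 (1.44 CPM) reached 1 CPM. Dkk1 was thus tested only because it passed the filter through the groups where it was high. As C1T held 3 counts, the size is loosely known, and the ratio of summed counts per read was 10.8 in C1MV, with a 95% counting interval of 3.41 to 54.6, and 17.5 in C1HDT, with 5.74 to 87.0. Against the day 0 cells they came from, Dkk1 was also higher, with log2 fold changes of 3.58 (C1MV), 4.17 (C1MDT), 3.53 (C1HV) and 3.98 (C1HDT). These 8 calls were kept in every fit that left out 1 library and in the 7 other alternatives, but their size was not. All 3 counts of C1T were in replicate 1, and without it the log2 fold changes against C1T were 6.25, 6.85, 6.54 and 6.97, fitted values against libraries at 0 that depend on the prior count. Leaving out 1 library gave 3.27 to 4.48, 3.86 to 5.07, 3.23 to 4.03 and 3.67 to 4.46 against the day 0 cells, highest without C1M or C1H replicate 2. C1T against C1 gave 3 counts against 3, so no fold is given. Continued inducers gave a log2 difference of 0.59 (95% interval -0.20 to 1.38) for C1MDT against C1MV and 0.44 (-0.35 to 1.24) for C1HDT against C1HV, neither past the threshold (edgeR adjusted p = 0.380 and 0.522). Starting from the high rather than the moderate fraction gave 0.28 (-0.58 to 1.15) without inducers and 0.14 (-0.59 to 0.86) with them.

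Markers of primitive and visceral endoderm were, as a sum, also higher in the 4 day 4 groups with raised Dkk1 than in C1T. The summed level of 12 such genes was between 472 and 815 CPM in the day 0 libraries and between 701 and 1067 CPM in C1T, and between 1515 and 2377 CPM in the other 4 day 4 groups. In each of these 4 groups 10 of the 11 tested markers were higher than in C1T, and the other, the apolipoprotein gene Apoa1 (named after its values were seen), was lower in C1MDT and C1HDT, beside 30.2% (C1MV), 33.4% (C1MDT), 28% (C1HV) and 33.5% (C1HDT) of all genes called in either direction, with a median log2 fold change of 3.63 (C1HV) to 4.16 (C1HDT). Sox17, an endoderm transcription factor, was at 22.3 ± 3.95 CPM in C1HDT and 0.240 ± 0.480 CPM in C1T, whereas Afp was at the floor in all 8 groups. These markers also changed where Dkk1 was not called. In C1M against C1, 4 were higher and 1 lower (26.3% of all genes called). There the sum fell from 715 to 552 CPM while the median log2 fold change was 0.95, so the sum follows abundant markers. With against without inducers, 6 were higher and 1 lower in C1MDT (12.6%), and 6 and 0 in C1HDT (15.9%). Dkk1 is also known as a gene of the visceral endoderm. In bulk libraries a change in the number of cells of a type and a change in RNA per cell cannot be told apart, and the part of these cells in the Dkk1 levels was not tested.

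**Figure D2:**
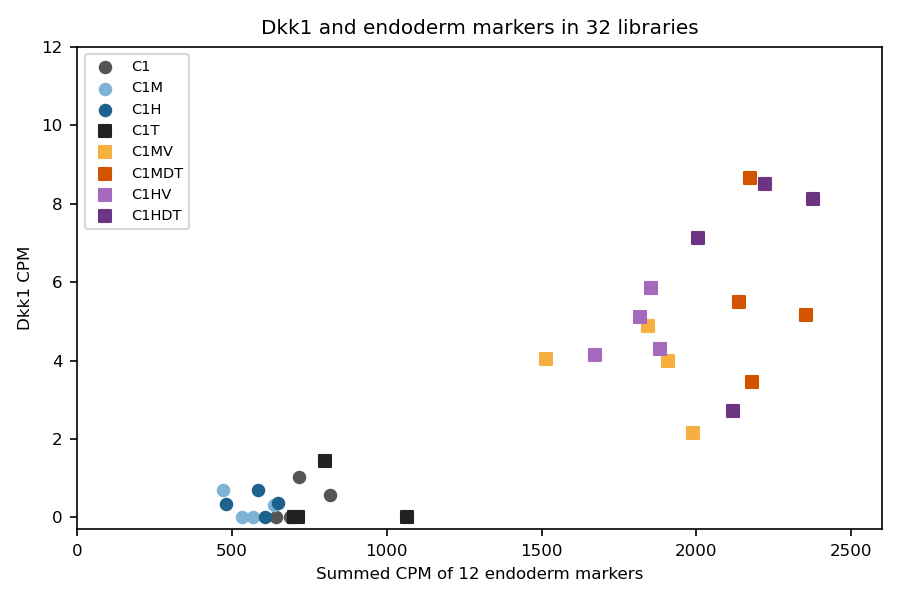
Dkk1 level (CPM, vertical axis) against the summed CPM of 12 primitive and visceral endoderm markers (horizontal axis) in each of 32 libraries, coloured by group, with circles for day 0 and squares for day 4. The 16 libraries of C1MV, C1MDT, C1HV and C1HDT lie at 1515 CPM of markers or more and at 2.14 CPM of Dkk1 or more, apart from the other 16.

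RefSeq promoter windows (GRCm38.p6, from 250 bases before to 50 bases after the start site, 300 bases) were held for 5 of the 9 genes, Axin2, Sp5, Nkd1, Rnf43 (2 windows) and Dkk1. They were searched on both strands for CTTTGAA and CTTTGAT, the core letters of TCF/LEF sites, of which 2842 of 32851 windows of all genes (8.65%) held at least 1. Positions are counted from the RefSeq start, which for Dkk1, Nkd1 and Rnf43 lies inside the GENCODE span given here, so that the Dkk1 match is within that span. Among the members the Dkk1 window held CTTTGAA, whose first base lies 117 bases before the start, and the Sp5 window held CTTTGAT, 104 bases before it. The windows of Axin2, Nkd1 and Rnf43 held neither, which says only that these letters are not in those windows. Both windows with a match are shown 5′ to 3′ on the strand of the gene with the match in capitals, since 1 belongs to the gene that changed most and the other to a gene at the floor.
Dkk1 (chr19:30549447-30549746, minus strand): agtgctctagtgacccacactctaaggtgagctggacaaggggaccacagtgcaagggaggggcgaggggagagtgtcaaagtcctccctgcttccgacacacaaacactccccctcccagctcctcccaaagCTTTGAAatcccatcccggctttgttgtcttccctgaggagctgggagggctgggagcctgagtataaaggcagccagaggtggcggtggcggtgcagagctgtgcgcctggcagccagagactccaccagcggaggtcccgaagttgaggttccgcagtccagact
Sp5 (chr2:70474673-70474972, plus strand): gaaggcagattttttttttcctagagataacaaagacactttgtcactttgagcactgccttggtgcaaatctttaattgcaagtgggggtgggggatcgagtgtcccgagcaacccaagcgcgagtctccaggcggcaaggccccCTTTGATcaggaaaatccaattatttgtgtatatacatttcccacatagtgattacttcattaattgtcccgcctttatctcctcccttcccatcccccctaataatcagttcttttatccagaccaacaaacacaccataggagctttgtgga

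Notum, a secreted carboxylesterase that removes the lipid from Wnt proteins, lies at chr11:120653788-120661175 on the minus strand, where the annotated antisense RNAs Myadml2os and Notumos overlap it. The strand setting used in counting is not given in the sources used here, so reads of these RNAs cannot be told apart from Notum reads. Notum had its highest level in C1, with counts of 10, 14, 7 and 1. It had 2, 2, 3 and 2 counts in C1M, and 1, 3, 6 and 5 in C1H. In C1M all libraries were at the floor, whereas C1 had 3 libraries above it and 1, replicate 4, under it. Notum fell in C1M against C1 (4.06 ± 3.05 to 0.840 ± 0.110 CPM, SD, n = 4) by 2.17 ± 0.62 (SE) on the log2 scale, with an edgeR adjusted p of 0.00461, which became 0.0703 without C1 replicate 2. In C1H the log2 fold change was -1.48 ± 0.57 (edgeR adjusted p = 0.0422), a call that was lost without C1 replicate 1, 2 or 3 or C1H replicate 1 or 2 (adjusted p up to 0.286), with DESeq2 and under 3 other alternatives (up to 0.0800).

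At day 4 Notum had 11, 3, 2 and 3 counts in C1T, 3, 5, 6 and 3 in C1MV, and 0, 3, 1 and 3 in C1MDT. The counts were 1, 0, 1 and 1 in C1HV and 0, 1, 0 and 1 in C1HDT. Thus C1MDT, C1HV and C1HDT were at the floor in all 12 libraries. Against C1T the log2 fold change was -1.80 ± 0.71 (SE) for C1MDT, -2.42 ± 0.85 for C1HV and -3.29 ± 0.88 for C1HDT, with edgeR adjusted p-values of 0.0397, 0.0224 and 0.00152. The ratio of summed counts per read, with its 95% counting interval, was 0.170 (0.0321 to 0.576) in C1HV and 0.0825 (0.00931 to 0.342) in C1HDT. In C1MV the log2 fold change was -0.35 (95% interval -1.56 to 0.86). All 3 calls rested on C1T replicate 1, which held 11 of the 19 C1T counts, since without it the log2 fold changes were -1.01, -1.62 and -2.51 and the adjusted p 0.411, 0.254 and 0.0553. That of C1MDT was lost also without C1T replicate 4 or C1MDT replicate 1 or 3, with no filter on low counts (edgeR adjusted p = 0.0529) and with DESeq2 (0.0582), and that of C1HV also without C1HV replicate 2 or 3. Notum was also lower in C1HDT than in the C1H cells of day 0 (log2 fold change -2.55 ± 0.93, edgeR adjusted p = 0.0144), a call lost without C1H replicate 3 or C1HDT replicate 1 (adjusted p up to 0.0586). With only the groups compared, Notum did not pass the filter in C1HDT against C1H, nor in C1HV or C1HDT against C1T.

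Nkd1 (chr8:88521354-88594884, plus strand) was the member that rose with high fusion at day 0. Its counts were 2, 9, 2 and 3 in C1, 2, 9, 11 and 12 in C1M, and 16, 18, 17 and 17 in C1H. Every C1H library, from 5.45 to 7.14 CPM, was above every C1 library, of which the highest, replicate 2, was at 5.09 CPM and the others at 1.44 CPM or less. The level was 6.27 ± 0.693 CPM in C1H and 2.10 ± 2.01 CPM in C1 (SD, n = 4). The log2 fold change was 1.63 ± 0.44 (SE, edgeR adjusted p = 0.00263), and the call was kept in all 8 fits without 1 library (log2 fold change 1.32 to 2.45, the highest without C1 replicate 2) and in all 7 other alternatives. In C1M the level was 3.14 ± 1.71 CPM, and neither C1M against C1 (log2 fold change 0.67, 95% interval -0.32 to 1.65) nor C1H against C1M (0.96, 0.21 to 1.71, adjusted p = 0.214) passed the threshold.

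At day 4 the mean of Nkd1 was highest in C1MDT and lowest in C1MV. Its counts in C1T, without dox, were 6, 14, 15 and 4 (4.62 ± 2.23 CPM), which exceeded C1 by 1.25 ± 0.48 (SE) on the log2 scale (edgeR adjusted p = 0.0248). This call was lost without C1 replicate 1, 3 or 4 or C1T replicate 2 or 3 (adjusted p up to 0.125), and leaving out 1 library gave 0.95 to 2.08, the highest without C1 replicate 2. Counts were 3, 8, 6 and 5 in C1MV, 18, 8, 15 and 10 in C1MDT, 6, 6, 9 and 7 in C1HV, and 7, 8, 11 and 8 in C1HDT. None of these 4 groups passed the threshold against C1T, with log2 fold changes from -0.98 (C1MV) to 0.01 (C1MDT). The C1MDT mean of 5.24 ± 3.46 CPM held 1 library far above the rest, replicate 1 at 10.4 CPM against 2.95 to 4.19 CPM. With against without inducers, Nkd1 differed by 1.00 on the log2 scale in cells of the moderate fraction (95% interval 0.14 to 1.86, edgeR adjusted p = 0.122) and by -0.16 in those of the high fraction (-1.04 to 0.72, adjusted p = 0.862), neither past the threshold. C1HDT cells, with inducers throughout, had less Nkd1 than C1H (log2 fold change -0.91 ± 0.38, edgeR adjusted p = 0.0341), and no C1HDT library reached the C1H range. That call was lost without C1H replicate 2, 3 or 4 or C1HDT replicate 1 or 4 (adjusted p up to 0.127) and with DESeq2 (0.0507).

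Axin2 (chr11:108920349-108950783, plus strand), often used as a readout of Wnt activity, was overlapped by the antisense gene Gm11670. Its counts were 0, 0, 5 and 3 in C1, 6, 4, 10 and 4 in C1M, and 7, 7, 4 and 2 in C1H. The groups overlapped. The level was 1.01 ± 1.26, 2.22 ± 0.847 and 1.78 ± 0.770 CPM (SD, n = 4), and the log2 fold change against C1 was 1.15 (95% interval -0.10 to 2.39) in C1M and 0.86 (-0.43 to 2.14) in C1H, neither past the threshold (edgeR adjusted p = 0.175 and 0.353). Both intervals reach from below 0 to above 2 on the log2 scale.

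C1T cells had Axin2 counts of 8, 7, 6 and 6, above all C1 libraries once scaled. The log2 fold change against C1 was 1.71 ± 0.61 (SE, edgeR adjusted p = 0.0140), lost without C1 replicate 1 or 2, the libraries with 0 counts (adjusted p up to 0.0933). Leaving out 1 library gave 1.25 to 2.68, the highest without C1 replicate 3. In C1MV, C1MDT, C1HV and C1HDT Axin2 was at 2.81 ± 1.27, 2.72 ± 0.860, 4.23 ± 2.17 and 3.74 ± 1.06 CPM, around the 3.38 ± 0.573 CPM of C1T, and none of the 8 comparisons of the design among the day 4 groups passed the threshold. C1HV, with counts of 11, 5, 15 and 3, was above the C1H cells it came from by 1.25 ± 0.49 on the log2 scale (edgeR adjusted p = 0.0265), with overlapping libraries. The call was lost without C1H replicate 3 or 4 or C1HV replicate 1 or 3 (adjusted p up to 0.149). C1HDT against C1H gave 1.05 ± 0.48, with every C1HDT library above every C1H library and an edgeR adjusted p of 0.0523. Ordered by mean, Axin2 ran from C1HV through C1HDT, C1T, C1MV, C1MDT, C1M and C1H to C1, and no neighbours in this order differed beyond their spread (edgeR adjusted p from 0.353 to 0.979).

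**Figure D3:**
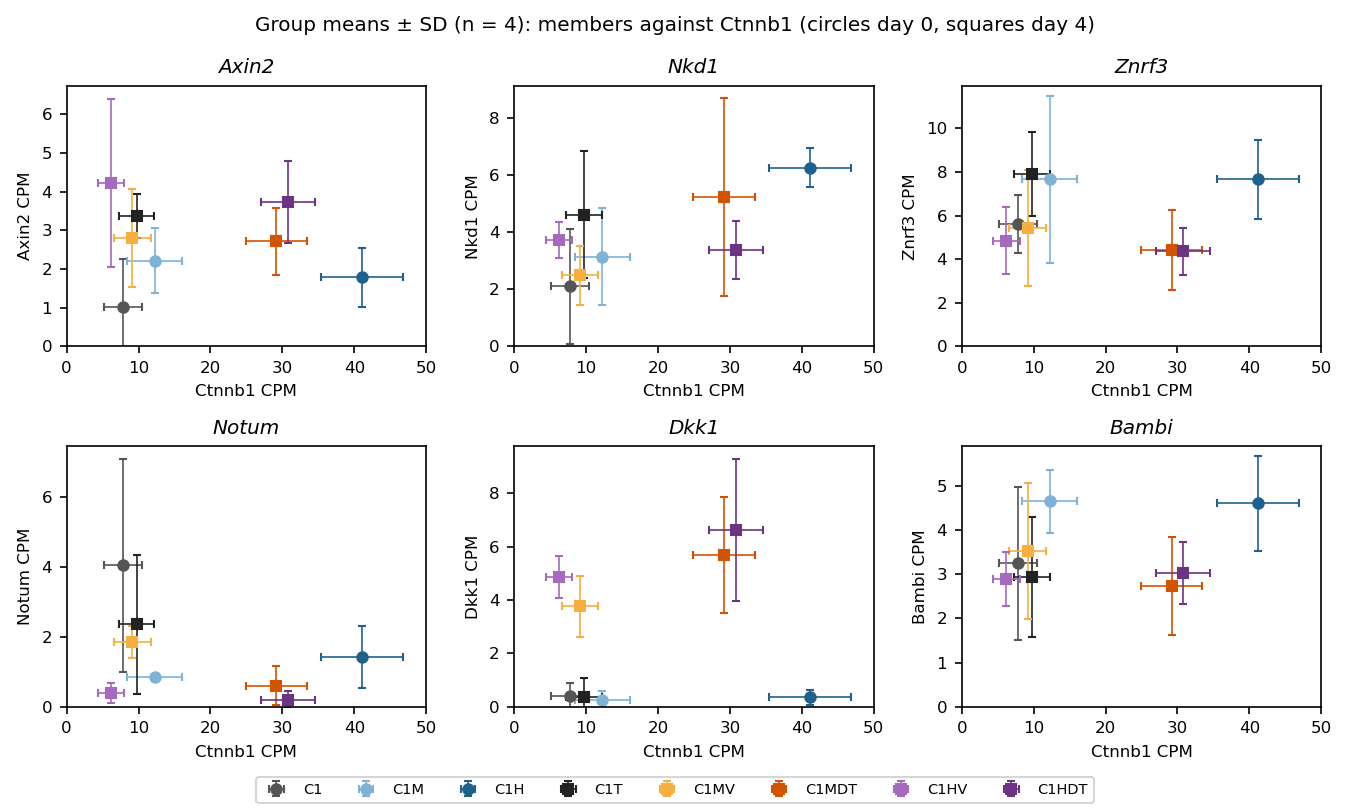
Group means ± SD (n = 4 libraries) of the 6 tested genes in CPM (vertical axes) against Ctnnb1 in CPM (horizontal axes), with circles for day 0 and squares for day 4. At day 0 Nkd1 was highest in C1H, the group with the most Ctnnb1 (41.1 CPM), while at day 4 C1T, C1MV and C1HV, with under 10 CPM of Ctnnb1, spanned 2.49 to 4.62 CPM of Nkd1, and C1MDT and C1HDT, with about 30 CPM of Ctnnb1, were at 5.24 and 3.38 CPM.

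Znrf3 (chr11:5276324-5444847, minus strand), the membrane ligase, was the most counted member, with 4 to 39 counts per library. Its level was 5.62 ± 1.31 CPM in C1, 7.66 ± 3.84 in C1M, 7.67 ± 1.81 in C1H and 7.89 ± 1.93 in C1T (SD, n = 4), and none of the 4 comparisons of the design among these groups (C1M, C1H and C1T against C1, and C1H against C1M) passed the threshold. In the other 4 groups the means were lower, from 4.37 ± 1.08 CPM (C1HDT) to 5.43 ± 2.65 (C1MV). Znrf3 fell by 0.77 ± 0.32 (SE) on the log2 scale in C1MDT against C1M (edgeR adjusted p = 0.0361) and by 0.79 ± 0.33 in C1HDT against C1H (0.0314), with overlapping libraries in both. The C1MDT call was lost with DESeq2 (0.0516) and without C1M replicate 1 or 3 or C1MDT replicate 1 or 3 (adjusted p up to 0.463, with a log2 fold change of -0.33, without C1M replicate 3, which held 39 counts). The C1HDT call was lost without C1H replicate 1, 2 or 4 or C1HDT replicate 1 or 2 (up to 0.110). Against C1T, none of the 4 groups passed the threshold, with C1HDT nearest (log2 fold change -0.81, 95% interval -1.49 to -0.13, adjusted p = 0.0556).

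Its partner ligase Rnf43 (chr11:87662722-87735539, plus strand) and the R-spondin receptor Lgr5 (chr10:115450311-115587780, minus strand, with the antisense gene A930009A15Rik) stayed at the floor in all 8 groups. Rnf43 had 32 counts in all and 0 in 9 libraries. Its highest group was C1M, with counts of 2, 2, 1 and 3, or 0.750 CPM over the pooled libraries with a 95% Poisson interval of 0.324 to 1.48 CPM. Lgr5 had 17 counts in all, 5 of them in C1MV and 5 in C1MDT. It had 0 counts in the 8 libraries of C1HV and C1HDT, which by the same interval allows up to 0.488 and 0.356 CPM. Sp5 (chr2:70474923-70477729, plus strand), a transcription factor that represses Wnt targets, had 14 counts in all, at most 3 in a library, and 0 in the libraries of C1MV and C1HV. Its highest group was C1HDT, with counts of 0, 3, 1 and 0, or 0.386 CPM (0.105 to 0.988). The intervals of all groups overlapped for each of the 3 genes, and they cover counting error only. When genes were not filtered, none of the 48 pairwise tests of these 3 genes passed the threshold with edgeR, and 2, both of Lgr5, had an unadjusted p under 0.05.

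**Figure D4:**
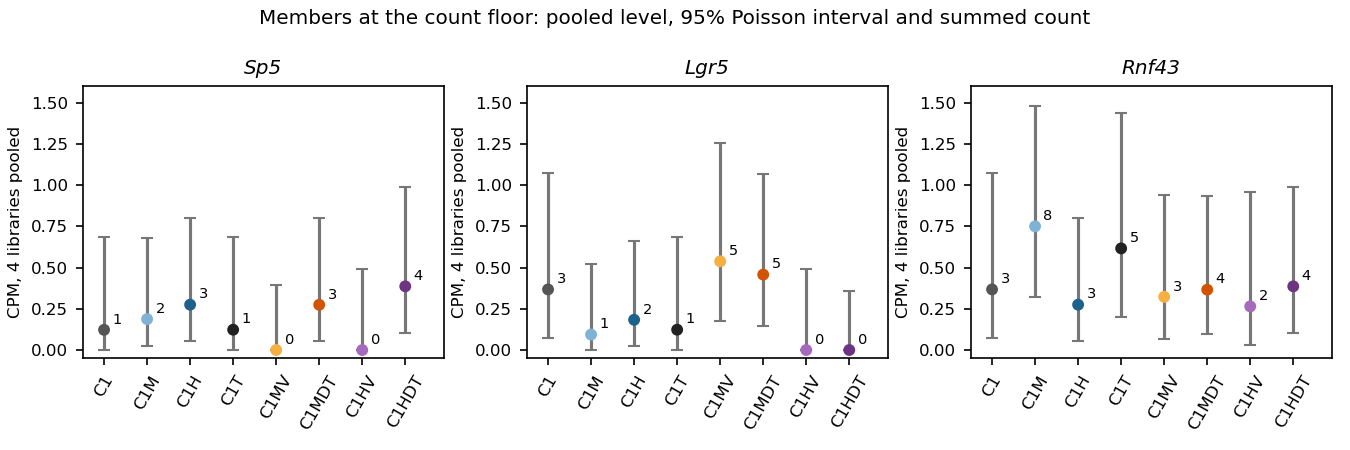
Pooled level of Sp5, Lgr5 and Rnf43 over the 4 libraries of each group (CPM, vertical axis), with 95% Poisson intervals and the summed count beside each point. Summed counts run from 0 to 8, the most in Rnf43 of C1M, and the intervals of the 8 groups overlap for each gene.

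Bambi, on chromosome 18, was counted in every library, with 2 to 16 counts. Its means were 4.65 ± 0.706 CPM in C1M and 4.60 ± 1.08 in C1H (SD, n = 4), and from 2.73 ± 1.11 (C1MDT) to 3.53 ± 1.54 (C1MV) in the other groups, C1 at 3.25 ± 1.73. No pairwise comparison of Bambi passed the threshold. Its difference of C1M from C1 was 0.54 on the log2 scale, with a 95% interval of -0.26 to 1.35.

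Counted over the 6 tested members, calls were read against their share over all genes. In C1M against C1, 1 of 6 members was called (Notum), beside 26.3% of the 15280 genes tested. The median log2 fold change there was 0.50 over the members and 0.06 over all genes. In C1H against C1 it was 2 of 6 (Nkd1 and Notum), beside 25.9%, with a median log2 fold change of 0.49 over the members and 0.04 over all genes. In C1H against C1M it was 0 of 6, beside 1.77%, with 1 member at an unadjusted p under 0.05 and 0 with DESeq2. In C1T against C1 it was 2 of 6, both higher, beside 49.2%.

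At day 4 against C1T, 1 of 6 members was called in C1MV (30.2% of all genes), and 2 of 6 in each of C1MDT (33.4%), C1HV (28%) and C1HDT (33.5%), in each case Dkk1 higher and, outside C1MV, Notum lower. From day 0 to day 4 it was 1 of 6 for C1MV against C1M (45.8%), 2 of 6 for C1MDT against C1M (52.4%), 2 of 6 for C1HV against C1H (47.0%) and 4 of 6 for C1HDT against C1H (55.7%). With against without inducers, 0 of 6 were called in cells of either fraction, with edgeR and with DESeq2. All genes were called at 12.6% for C1MDT against C1MV, where 2 members had an unadjusted p under 0.05, and at 15.9% for C1HDT against C1HV, where none did. High against moderate fraction also gave 0 of 6 with both tools, without inducers (0.00654% of all genes, 1 member at an unadjusted p under 0.05) and with them (0.00%, no member). With 6 members, no count in the 16 pairwise comparisons lay more than 1 gene above what the share over all genes would give.

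**Figure D5:**
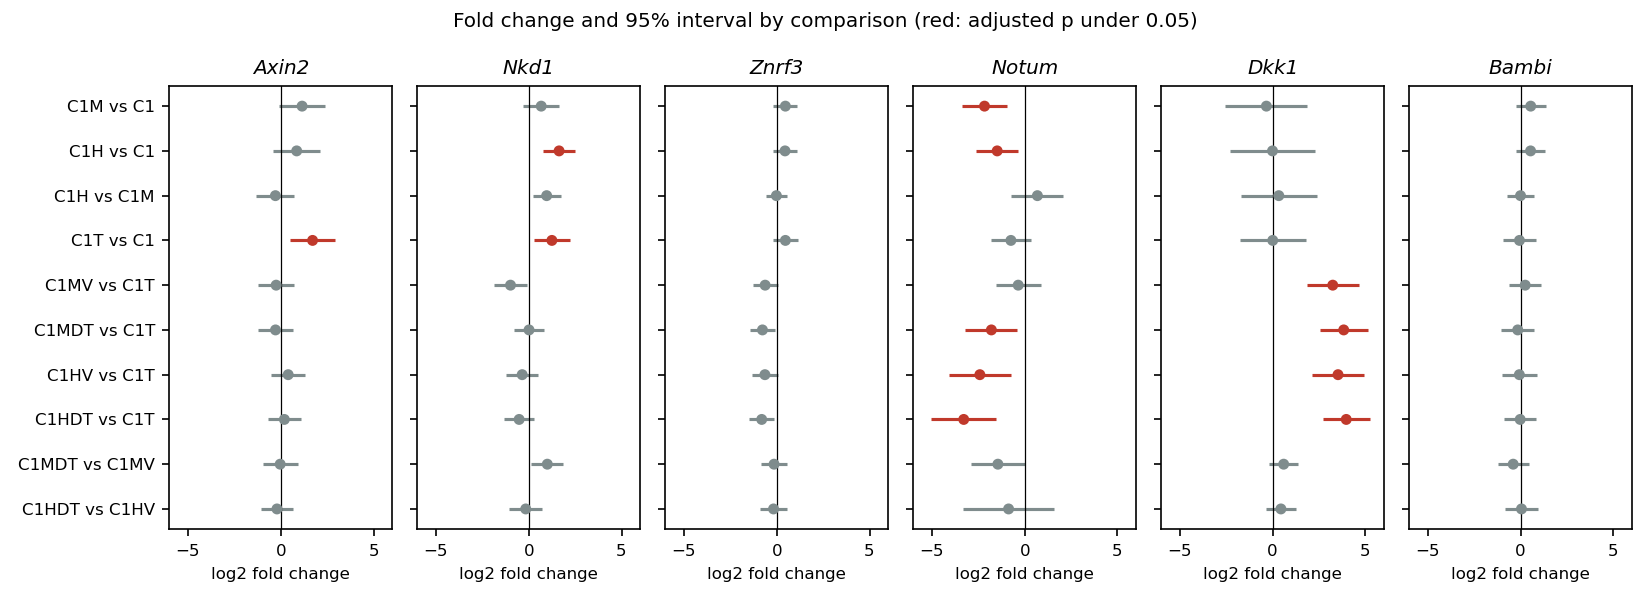
Log2 fold change (horizontal axis) with its 95% interval for each tested gene in 10 pairwise comparisons, with red for edgeR adjusted p under 0.05. Red marks stand mainly in the Dkk1 panel, at 3.24 to 3.96 in the 4 comparisons with C1T, and in the Notum panel, at -3.29 to -1.48.

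The difference of each day 4 group from C1T was compared directly with the difference of its day 0 source cells from C1. C1MV and C1HV had neither inducer at day 4 while C1T had TMP, so for them earlier induction and the lack of TMP cannot be told apart. For Nkd1 it was -1.99 ± 0.63 (SE) on the log2 scale in C1HV (edgeR adjusted p = 0.0123; 1 of 6 members called, 21.9% of all genes) and -2.15 ± 0.62 in C1HDT (0.00426; 3 of 6, 25.2%). Thus the excess over the control seen in C1H at day 0 was not matched in its day 4 groups, where C1T itself was higher than C1. For Dkk1 the difference was 4.17 ± 1.56 in C1MDT (0.0380; 2 of 6, 24.4%) and 3.97 ± 1.54 in C1HDT (0.0441), and for Znrf3 it was -1.24 ± 0.47 (0.0411) and -1.26 ± 0.47 (0.0374). For both genes C1MV and C1HV did not pass the threshold, with Dkk1 at 3.58 ± 1.54 (edgeR adjusted p = 0.0818) and 3.53 ± 1.52 (0.0841), and Znrf3 at -1.09 ± 0.47 (0.0843) and -1.08 ± 0.48 (0.0968). In C1MV 0 of 6 passed (22.5% of all genes), 4 members had an unadjusted p under 0.05, and DESeq2 also called 0.

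Other genes of the pathway were counted from lists. Of 14 tested genes among 18 other reported β-catenin targets, 2 were higher and 3 lower in C1M against C1 (26.3% of all genes called in either direction), and 3 higher and 3 lower in C1H (25.9%). The median log2 fold change of the list was -0.10 in C1M and 0.09 in C1H. Tnfrsf19, a TNF receptor family member, rose from 2.75 ± 0.806 CPM in C1 to 10.3 ± 3.35 in C1M and 11.5 ± 2.41 in C1H, and Nkd2, the paralog of Nkd1, from 1.46 ± 0.512 to 5.50 ± 1.20 and 6.34 ± 1.98. Tbx3, a T-box transcription factor of naive cells, fell from 840 ± 4.58 CPM in C1 to 612 ± 12.1 in C1M. In C1T against C1, 9 were higher and 2 lower (49.2% of all genes called), with a median log2 fold change of 1.51 against 0.01 over all genes. Lef1, a TCF/LEF factor and itself a target, went from 2.50 ± 0.774 CPM in C1 to 270 ± 19.6 in C1T.

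Lef1 was lower than in C1T in C1MV (76.7 ± 9.94 CPM) and C1HDT (114 ± 6.16 CPM). Its levels in C1MDT and C1HV are not given here, so the fall is not read as particular to C1MV and C1HDT. The counts of the lists that follow stand beside 25.9% of all genes called in C1H against C1 and 33.5% in C1HDT against C1T, and with 11 to 18 genes a list nothing particular to a list is read from them. Of 12 tested secreted and membrane Wnt antagonists, 3 were higher and 1 lower in C1H against C1, among them Dkk3, a Dickkopf family member, from 3.74 ± 1.90 to 9.64 ± 2.20 CPM. In C1HDT against C1T 5 were higher and 1 lower, and Sfrp1, a secreted Wnt-binding protein, went from 174 ± 9.07 to 468 ± 17.1 CPM. Of 18 receptor and R-spondin genes, 3 were higher and 1 lower in C1H against C1, and 0 and 2 in C1HDT against C1T. Of 14 destruction complex genes, 0 were higher and 4 lower in C1H against C1, among them Apc, the tumour suppressor scaffold, from 170 ± 22.1 to 121 ± 5.57 CPM, and 4 were higher and 1 lower in C1HDT against C1T. Of 14 TCF/LEF factors and partners, 2 were higher and 2 lower in C1H against C1, and Tcf7l1, a repressor of this family, went from 156 ± 8.26 to 98.4 ± 5.15 CPM, and in C1HDT against C1T 3 were higher and 3 lower. Of 11 tested BMP and TGF-β feedback genes, the group Bambi belongs to by role, 0 were higher and 2 lower in C1H against C1, and 3 were higher and 3 lower in C1HDT against C1T.

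Over the 32 libraries the log2 level of Dkk1 was most like that of Clcn5, a chloride transporter gene (Pearson r = 0.94), Amot, which encodes angiomotin (0.93), and Col4a2, a basement membrane collagen (0.93). The libraries share groups, so this is a description of group differences. For the other 5 tested members the best match was weaker, from 0.69 (Ergic2 for Nkd1) to 0.77 (Polr2h for Axin2), at counts where sampling noise is large. Among the 6 members themselves r ran from -0.52, for Axin2 with Notum and for Znrf3 with Dkk1, to 0.42 for Axin2 with Dkk1. The summed level of all 9 members was 17.2 ± 6.46 CPM in C1, 22.8 ± 2.77 in C1H, 22.4 ± 3.32 in C1T and 22.2 ± 3.86 in C1HDT (SD, n = 4), and without Dkk1 it was 16.8 ± 6.31, 22.5 ± 2.61, 22.0 ± 2.69 and 15.5 ± 1.26. In C1M, C1MV, C1MDT and C1HV the sum was 19.8 ± 4.20, 20.7 ± 4.93, 22.7 ± 3.05 and 21.2 ± 2.60 CPM. Without Dkk1 it was 19.6 ± 4.15, 16.9 ± 5.12, 17.0 ± 3.65 and 16.4 ± 3.20 CPM in these groups.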

How the data were processed

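RNA of 32 libraries was read from the 3′ end (QuantSeq). The authors deposited raw counts per gene, without normalization, made by trimming with bbduk, alignment to mm10 with STAR and counting with htseq-count. Whether counting used strand is not given in the sources used here. Groups and replicate numbers were read from the labels. Gene positions came from GENCODE M21 (GRCm38) and promoters from RefSeq.

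Genes with a CPM of at least 1 in at least 4 libraries (15280) were tested with edgeR 4.0.16 in R 4.3.3, using TMM factors and the quasi-likelihood test with robust dispersions in 1 fit of 8 groups, with Benjamini-Hochberg adjustment over all genes and a threshold of 0.05. Intervals are 95%. The floor was 3 counts per library, where a group was at the floor if no library exceeded it. Total counts on genes were 1366951 to 3648787, median 2402467, and no 2 libraries held identical values. The fits were tested on simulated data, with changes placed only in genes at higher levels than most members have. Recovery of changes at lower counts was not tested.

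The alternatives were other size factors (RLE, or library size only), no filter, a CPM of at least 2 in 4 libraries, DESeq2 1.42.0, only the groups compared, a replicate block, and leaving out each library. The members, lists and comparisons were chosen with earlier results of these data known. All 9 members were described, list genes were named as the 3 with the largest absolute log2 fold change among those called per list and comparison with libraries that did not overlap, of which some are given, and likeness by the 3 highest Pearson correlations of log2 CPM (prior count 2).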

Additional observations from a re-analysis of the deposited data

Results flagged for a closer look

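Nkd1 held 2 libraries far from the others of their group, by the gap to the nearest library over the range of the group. In C1 the highest library, replicate 2, was at 5.09 CPM (ratio 0.860), and in C1MDT the highest, replicate 1, at 10.4 CPM (ratio 0.833). About 1 in 20 groups is marked in this way by chance, and with 8 groups for each member nothing further is read from these 2 marks.

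For 6 values the difference of a day 4 group from C1T was not that of its day 0 source cells from C1, by a test of the difference itself (edgeR). That of Nkd1 was -1.99 (log2) in C1HV, lost without C1 replicate 1 or C1T replicate 3 (adjusted p up to 0.0569), and -2.15 in C1HDT, kept in all 16 fits without 1 library. Without C1 replicate 2 they were -2.78 and -2.96. That of Dkk1 was 4.17 in C1MDT and 3.97 in C1HDT, where 3 to 4 counts per group stand behind C1, C1M, C1H and C1T, and without C1T replicate 1 they were 7.19 and 6.98, without C1 replicate 3 they were 3.22 and 3.01, and without C1M replicate 2 the first was 5.08. The first was lost without C1 replicate 2 or 3, C1M replicate 1 or 4, C1T replicate 2, 3 or 4 or C1MDT replicate 3 (adjusted p up to 0.349). The other was lost without C1 replicate 2 or 3, C1H replicate 1, 3 or 4, C1T replicate 2, 3 or 4 or C1HDT replicate 2 or 4 (up to 0.380), and with no filter on low counts (edgeR adjusted p = 0.0552). That of Znrf3 was -1.24 in C1MDT, lost without C1 replicate 3 or 4, C1M replicate 1 or 3, C1T replicate 1, 2 or 4 or C1MDT replicate 1 or 3 (up to 0.250, at -0.81 without C1M replicate 3) and with DESeq2 (0.0592), and -1.26 in C1HDT, lost without C1 replicate 3 or 4, C1H replicate 1, 2 or 4, C1T replicate 1, 2 or 4 or C1HDT replicate 1, 2 or 3 (up to 0.0868).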

How the results depend on the processing

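No value of a named gene changed direction past the threshold. The number of the 6 tested members called moved by over 1.5 times in these settings. In C1M against C1 it went from 1 to 0 with only the groups compared, where Notum did not pass the filter. In C1H against C1 it went from 2 to 1 with library size only, without a filter, with DESeq2 and with the replicate block. In C1MDT against C1M it went from 2 to 1 with DESeq2, in C1MDT against C1T from 2 to 1 without a filter and with DESeq2, in C1HV against C1T from 2 to 1 with only the groups compared, and in the C1MDT difference between days from 2 to 1 with DESeq2. Leaving out 1 library gave 0 to 2 calls in C1M against C1, 1 to 2 in C1H against C1, 0 to 2 in C1T against C1, 1 to 2 in C1MV and C1MDT against C1M and in C1HV against C1H, 1 to 5 in C1HDT against C1H, 1 to 3 in C1MDT and C1HDT against C1T, 1 to 2 in C1HV against C1T, and 0 to 3 (C1MV), 0 to 2 (C1MDT), 0 to 2 (C1HV) and 1 to 3 (C1HDT) in the differences between days. Same-numbered libraries did not deviate together (mean r = -0.0016 against 0.00054 for other numbers), so the block is given only here, and the other counts stayed within 1.5 times of the fit without it. Of 288 values of the members 148 were 3 counts or fewer, among them every value of Sp5, Lgr5 and Rnf43, which were not tested, whereas Znrf3 was above 3 counts in all 32 libraries and Bambi in 31.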
